A study of Mus musculus with 6 samples.

Results

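The genes described here sense oxygen or carry the transcriptional response to its lack, and they were followed in skeletal muscle of FLExDUX4 mice and their wild-type littermates. They are 10 genes chosen by symbol, of 52550 mouse genes in the deposited table: *Hif1a*, *Epas1*, *Hif3a*, *Arnt*, *Egln1*, *Egln2*, *Egln3*, *Vhl*, *Vegfa* and *Vegfb*. Each symbol stood on 1 row. FLExDUX4 mice are hemizygous for an inverted human *DUX4* transgene at the *Rosa26* locus on a B6 background, and *DUX4* is the gene whose aberrant expression causes facioscapulohumeral muscular dystrophy. The transgene is leaky and gives very little *DUX4* RNA in the absence of Cre, so the comparison is with littermates that lack the transgene. The labels give quadriceps from male mice 13 weeks old, 3 of each genotype, whereas the methods of the study give triceps from mice 2 months old. The human transgene was not analysed here, so the genotype labels were not checked against it.

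RNA was read with QuantSeq, which gives about one read per polyadenylated transcript near its 3′ end, so levels of different genes are compared here as counts per 1000000 (CPM) without division by transcript length. The values are raw counts summed over the mice of a genotype. The sums over all mouse genes were 13110125 (FLExDUX4) and 18367364 (wild-type). Only 1 summed value per genotype was used, so there was no test across mice. Ranges in parentheses after a ratio, quotient or share are 95% counting ranges (Clopper-Pearson), and those after a level are exact Poisson ones. These cover counting error alone and say nothing of the spread between mice, so 1 mouse can decide a ratio. In bulk muscle, fewer cells of a type and less RNA per cell cannot be told apart.

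In oxygenated cells the prolyl hydroxylases encoded by the *Egln* genes modify the α subunits of hypoxia-inducible factor (HIF), and the VHL protein then marks these subunits for degradation. When oxygen falls, the α subunits escape this, pair with the protein encoded by *Arnt* and switch on genes of vessel growth, glucose use and red cell supply. HIF activity is set largely by protein stability, which RNA counts do not measure. In muscle, VEGF-A made by the fibers maintains the capillary bed.

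At an absolute log2 ratio of at least 0.5 with an interval that excludes 0, 2 of the 9 genes with enough counts to be compared were past the rule, both higher in FLExDUX4 muscle, and 0 were lower. The same rule was passed by 22.6% of the 13396 genes compared, with 11.3% higher and 11.3% lower, so the members' share was close to the background. The genes past the rule were *Arnt* and *Vhl*. *Hif1a* had a ratio below 0 and was just short of the rule, and *Hif3a* was hardly detected in either genotype. At an absolute log2 ratio of at least 1 none of the 9 was left, against 5.18% of all genes higher and 6.45% lower (11.6% in all). With the interval alone, 7 of the 9 excluded 0, 4 of them higher and 3 lower, against 20.5% and 20.6% of all genes (41.1% in all). A counting interval narrows as counts rise, and no share among genes of like depth was taken for the interval alone. These shares are therefore not a matched background. Over the 9 genes the log2 ratio (FLExDUX4 to wild-type) ran from -0.49 to 0.97 with a median of 0.16, against -0.001 for all genes compared. When the totals were scaled to the ERCC and SIRV spike-in RNAs in place of the genes, every log2 ratio moved by -0.28. Then 1 member was higher and 3 were lower, against 5.79% and 23.8% of all genes (29.6% in all).

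**Figure D1:**
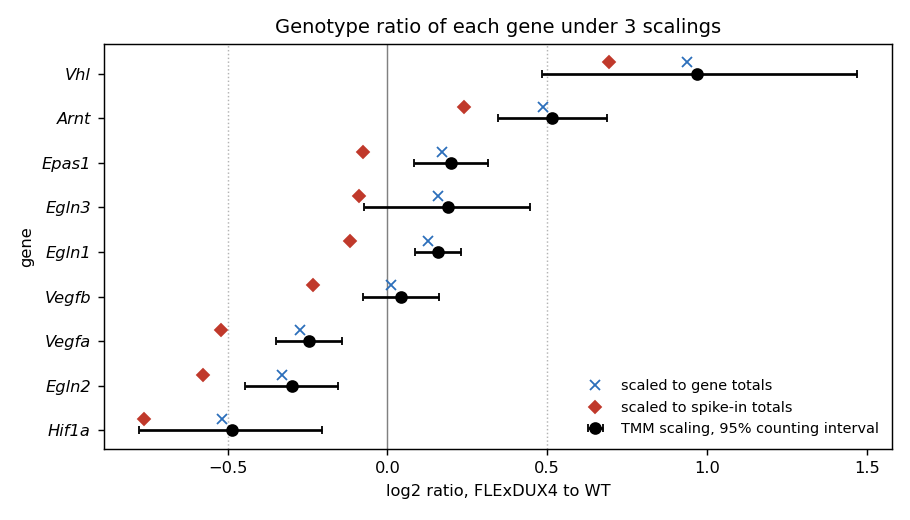
Log2 ratio of FLExDUX4 to wild-type (x axis) for the 9 genes compared (y axis), with black points and bars for TMM scaling and its 95% counting interval, crosses for scaling to the gene totals and diamonds for scaling to the spike-in totals. Dotted lines mark 0.5 in each direction. *Vhl* (0.97) and *Arnt* (0.52) lie beyond the right line, *Hif1a* (-0.49) lies just inside the left one, and every diamond is shifted by -0.28.

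HIF binds DNA through a core of A or G followed by CGTG. The RefSeq promoter windows of GRCm38.p6, which run from 250 bases before to 50 after a gene's start, covered 9 of the 10 genes in 11 windows, *Egln2* and *Vegfa* having 2 each. ACGTG on either strand (CACGT when read on the other) was found in 5 of the 11 windows (45.5%), which belong to 5 genes, and in 19.6% of all 32851 windows. GCGTG (or CACGC) was found in 7 of the 11 windows (63.6%), which belong to 6 genes, and in 32.4% of all windows. The members' windows also held more CG pairs, with a median of 19 against 7, and the part of this in the motif counts was not tested. The stretches below, 1 for each gene with ACGTG, are printed 5′ to 3′ on the gene's strand with the motif in capitals, to show where the core lies in the promoters of the sensor and target genes.
Egln1, chr8:124949308-124949332, minus strand: gccgtggtgtACGTGcagcgcgcgc
Egln2, chr7:27166836-27166860, minus strand: cctcctgtcaACGTGcggttcgcgc
Egln3, chr12:54204089-54204113, minus strand: tgcatctcagACGTGagatccaggt
Hif1a, chr12:73907787-73907811, plus strand: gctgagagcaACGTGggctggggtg
Vegfa, chr17:46025360-46025384, minus strand: agtgcgtgccCACGTcagagagcaa
The motif began 68 bases before the RefSeq start for *Egln1*, 48 for *Egln2*, 229 for *Egln3* and 70 for *Hif1a*. *Hif1a* held a further CACGTG, in which the 2 strands overlap, and *Egln2* another across its start. As GENCODE draws the genes, the stretch of *Hif1a* lay wholly inside its gene and that of *Egln1* partly inside. The *Vegfa* match lay 211 bases before the second of its starts, inside the gene, and the window of its first start held neither motif. These 5 genes had log2 ratios from -0.49 to 0.19 and thus went both ways. Of the genes past the rule, *Arnt* had GCGTG alone, 29 bases before its start, and *Vhl* had neither in its window. A match is a description of the letters in the window and not a site of binding.

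The α subunits were represented almost entirely by *Epas1* and *Hif1a*. *Hif1a* (ENSMUSG00000021109, chromosome 12 of GRCm38, 73901375 to 73947530, plus strand), which encodes the broadly expressed HIF-1α, had 155 counts in FLExDUX4 muscle and 311 in wild-type muscle. After scaling this was 11.9 CPM against 16.8 CPM, a log2 ratio of -0.49 (counting range -0.78 to -0.21), or 0.714-fold. The counting intervals of the 2 levels, 10.1 to 14.0 CPM and 14.9 to 18.7 CPM, did not overlap. With the gene totals as the scale the ratio was -0.52, which is past the rule. An antisense gene, *Gm15283*, shares 330 exonic bases with *Hif1a* and had 8 counts in FLExDUX4 muscle and 2 in wild-type muscle. Whether the counting used strand is not given in the sources used here, so a few reads of either gene may have been lost to the other. *Gm49321* shares 148 exonic bases on the same strand and had no counts.

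*Epas1* (ENSMUSG00000024140, chromosome 17), which encodes HIF-2α, a subunit prominent in endothelial cells, had 1078 counts against 1343. Its level was 83.1 CPM in FLExDUX4 muscle and 72.4 CPM in wild-type muscle, a log2 ratio of 0.20 (counting range 0.08 to 0.32) that became -0.077 with spike-in scaling. *Hif3a* (ENSMUSG00000004328, chromosome 7, 17031507 to 17062427, minus strand), whose protein is an α subunit with isoforms that restrain the others, had 2 counts in each genotype. That is 0.154 CPM (exact Poisson interval 0.0187 to 0.557) in FLExDUX4 muscle and 0.108 CPM (0.0131 to 0.389) in wild-type muscle. No ratio was taken from counts this low, and a difference was not detectable at this depth.

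*Arnt* (ENSMUSG00000015522, chromosome 3, 95434388 to 95497240, plus strand) encodes HIF-1β, the constitutive partner of every α subunit and also of the aryl hydrocarbon receptor. It had 564 counts in each genotype, although the wild-type total on genes was 1.40 times as large. Its level was therefore 43.5 CPM (40.0 to 47.2) in FLExDUX4 muscle and 30.4 CPM (27.9 to 33.0) in wild-type muscle, and the log2 ratio was 0.52 (counting range 0.35 to 0.69), or 1.43-fold. Among the 2727 compared genes with at least 1000 counts, to which *Arnt* belongs, 2.35% were past the rule, 1.43% higher and 0.917% lower. The call was at the edge of the rule, since the ratio was 0.49 with the gene totals and 0.24 with spike-in scaling.

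A quotient of counts within a genotype does not depend on the scaling. In FLExDUX4 muscle there were 3.64 counts of *Arnt* for each count of *Hif1a* (counting range 3.04 to 4.38), and in wild-type muscle 1.81 (1.58 to 2.09). For each count of *Epas1* there were 0.523 counts of *Arnt* (0.472 to 0.580) against 0.420 (0.380 to 0.464). The intervals of the genotypes did not overlap in either case. *Epas1* made up 87.3% of the α-subunit counts in FLExDUX4 muscle (85.3 to 89.1) and 81.1% in wild-type muscle (79.1 to 83.0), and *Hif1a* made up 12.6% (10.8 to 14.5) and 18.8% (16.9 to 20.7). The 3 α subunits together had 1235 counts against 1656, a log2 ratio of 0.09 (counting range -0.01 to 0.20). With TMM scaling the summed level thus differed by less than the counting error, while its make-up held relatively more *Epas1* in FLExDUX4 muscle. The sum, unlike the shares and quotients, moves by -0.28 with spike-in scaling, after which its counting range lies below 0.

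**Figure D2:**
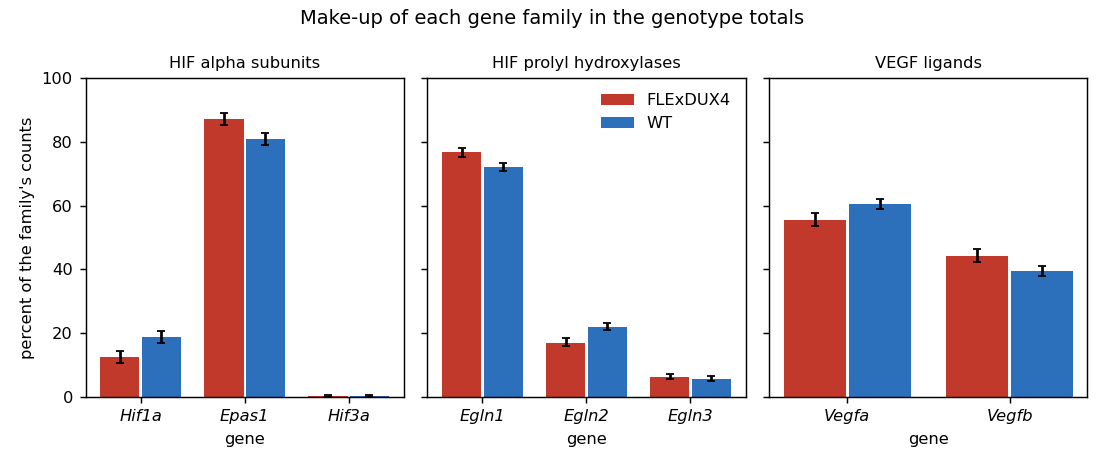
Percent of each family's counts (y axis, from 0) taken by each gene (x axis) in FLExDUX4 (red) and wild-type (blue) totals, with 95% Clopper-Pearson intervals. *Epas1*, *Egln1* and *Vegfa* lead their families in both genotypes, with 87.3% and 81.1%, 76.7% and 72.2%, and 55.7% and 60.5%.

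The prolyl hydroxylases were led by *Egln1* (ENSMUSG00000031987, chromosome 8, 124908587 to 124949324, minus strand), which encodes PHD2, the main oxygen sensor of the pathway. It had 2756 counts against 3532, or 212 CPM against 190.3 CPM, more than any other member in both genotypes. Its log2 ratio was 0.16 (counting range 0.09 to 0.23), and -0.12 with spike-in scaling. *Egln2* (ENSMUSG00000058709, chromosome 7, 27158658 to 27166802, minus strand), which encodes PHD1, had 612 counts against 1078. Its level was 47.2 CPM in FLExDUX4 muscle and 58.1 CPM in wild-type muscle, a log2 ratio of -0.30 (counting range -0.45 to -0.16), short of the rule, and -0.58 with spike-in scaling. *Egln3* (ENSMUSG00000035105, chromosome 12, 54178981 to 54203860, minus strand) encodes PHD3 and is itself a target of HIF. It had 223 counts against 280, or 17.2 CPM against 15.1 CPM, and its interval held 0 (log2 ratio 0.19, interval -0.07 to 0.45, and -0.087 with spike-in scaling).

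Within the family, *Egln1* took 76.7% of the counts in FLExDUX4 muscle (75.3 to 78.1) and 72.2% in wild-type muscle (71.0 to 73.5). *Egln2* took 17.0% (15.8 to 18.3) and 22.0% (20.9 to 23.2), and *Egln3* took 6.21% (5.44 to 7.05) and 5.73% (5.09 to 6.41). The *Egln1* to *Egln2* quotient was 4.50 (4.12 to 4.92) in FLExDUX4 muscle and 3.28 (3.06 to 3.51) in wild-type muscle. The *Egln1* to *Egln3* quotient, in contrast, was 12.4 (10.8 to 14.2) and 12.6 (11.2 to 14.3), with intervals that overlapped. The summed counts of the hydroxylases were 2.91 times those of the α subunits in FLExDUX4 muscle (2.72 to 3.10) and 2.95 times in wild-type muscle (2.79 to 3.12), so this balance differed by less than the counting error.

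*Vhl* (ENSMUSG00000033933, chromosome 6, 113623959 to 113631633, plus strand), which encodes the substrate-recognition subunit of the ubiquitin ligase for hydroxylated HIF-α, had the highest ratio of the 9 genes and the fewest counts. It had 85 counts in FLExDUX4 muscle and 62 in wild-type muscle, or 6.55 CPM (5.23 to 8.10) against 3.34 CPM (2.56 to 4.28). The log2 ratio was 0.97 (counting range 0.48 to 1.47), or 1.96-fold (1.40 to 2.77), and 0.69 with spike-in scaling. Of the 6573 compared genes with 100 to 1000 counts, the range that holds *Vhl*, 21.3% were past the rule, 11.1% higher and 10.2% lower. There were 32.4 counts of *Egln1* for each count of *Vhl* in FLExDUX4 muscle (26.1 to 40.7) and 57.0 in wild-type muscle (44.3 to 74.5).

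*Vegfa* (ENSMUSG00000023951, chromosome 17, 46016993 to 46032369, minus strand), the classical HIF target and the main growth factor of capillaries, had 1249 counts in FLExDUX4 muscle against 2117, or 96.3 CPM (91.0 to 102) against 114 CPM (109 to 119). The log2 ratio was -0.24 (counting range -0.35 to -0.14), short of the rule, and -0.52 with spike-in scaling. *Vegfb* (ENSMUSG00000024962, chromosome 19, 6982473 to 6987651, minus strand), which encodes a relative that acts through the receptor FLT1 and is abundant in oxidative tissue, had 995 counts against 1382. Its levels were 76.7 CPM and 74.5 CPM, and the log2 ratio was 0.04 (counting range -0.08 to 0.16), or -0.23 with spike-in scaling. There were 1.26 counts of *Vegfa* for each count of *Vegfb* in FLExDUX4 muscle (1.15 to 1.37) and 1.53 in wild-type muscle (1.43 to 1.64).

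By level the order in wild-type muscle was *Egln1*, *Vegfa*, *Vegfb*, *Epas1*, *Egln2*, *Arnt*, *Hif1a*, *Egln3*, *Vhl* and *Hif3a*. Neighbours whose counting intervals overlapped were *Vegfb* and *Epas1*, at 74.5 CPM and 72.4 CPM, and *Hif1a* and *Egln3*, at 16.8 CPM and 15.1 CPM. In FLExDUX4 muscle *Epas1* stood above *Vegfb* and *Egln3* above *Hif1a*. There the overlapping neighbours were *Epas1* and *Vegfb*, at 83.1 CPM and 76.7 CPM, and *Egln2* and *Arnt*, at 47.2 CPM and 43.5 CPM. The intervals of *Egln3* (15.0 to 19.6 CPM) and *Hif1a* (10.1 to 14.0 CPM) did not overlap there. *Egln1* had more counts than 97.2% of the compared genes in FLExDUX4 muscle and 96.8% in wild-type muscle, and *Vhl* more than 45.8% and 31.7%.

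**Figure D3:**
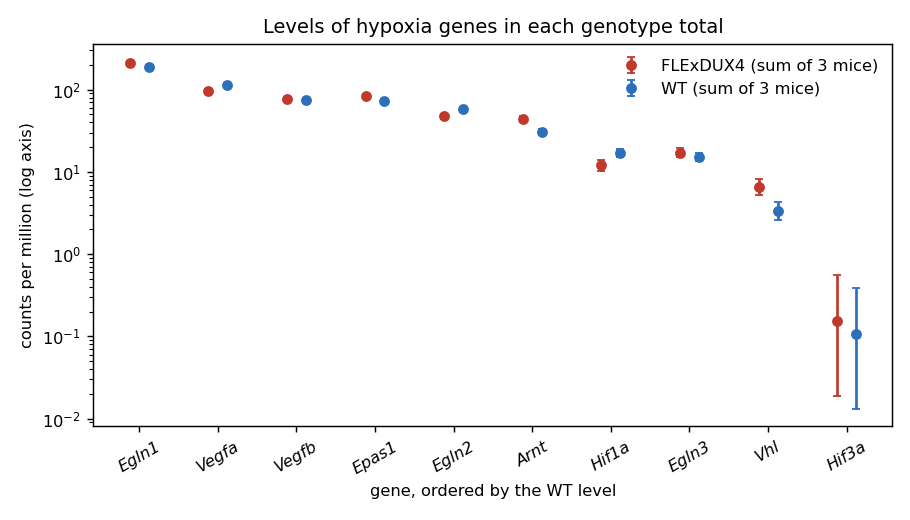
Level of each gene in CPM on a log axis (y axis) in the FLExDUX4 (red) and wild-type (blue) totals, ordered by the wild-type level (x axis), with exact 95% Poisson intervals. Levels run from 0.108 CPM for *Hif3a* to 190.3 CPM for *Egln1* in wild-type muscle, and *Vhl* shows the widest gap between genotypes, 6.55 CPM against 3.34 CPM.

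**Figure D4:**
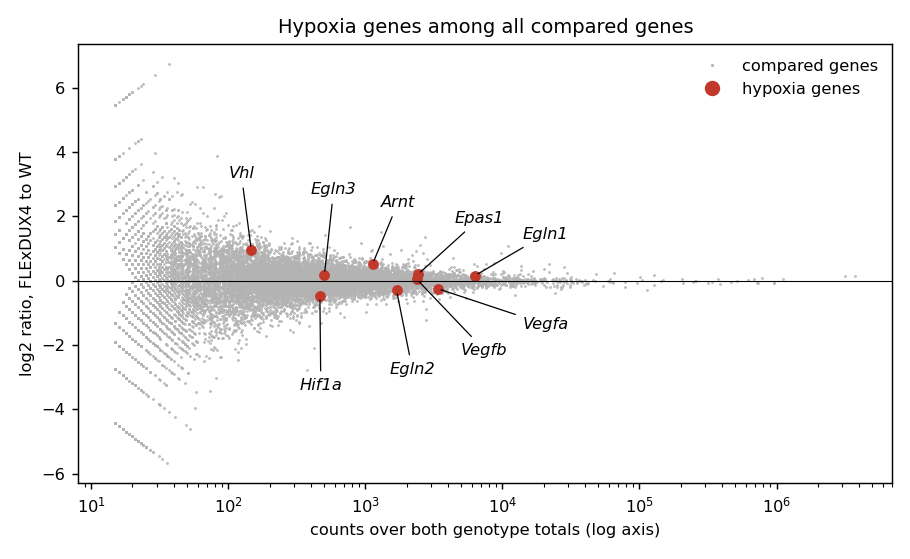
Log2 ratio of FLExDUX4 to wild-type (y axis) against the counts over both totals on a log axis (x axis), for the 13396 compared genes (grey) and the 9 hypoxia genes (red). The grey cloud narrows as counts rise, so that *Vhl* (147 counts) lies among many genes of like ratio and *Arnt* (1128 counts) near the upper edge.

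Genes around the pathway were taken from lists. Of 15 genes of the hydroxylase and VHL machinery, 4 of them members, 2 were higher, 0 lower and 13 neither, with a median log2 ratio of 0.12, and with spike-in scaling 1 was higher and 1 lower. Beside *Vhl*, *Siah1a*, which encodes a ubiquitin ligase that acts on the hydroxylases, was higher, with 162 counts against 153 and a ratio of 0.60 (counting range 0.27 to 0.93). *Ube2d3*, a ubiquitin-conjugating enzyme and the gene of the list with the most counts over both genotypes, had 2491 counts against 4041 and a ratio of -0.18 (counting range -0.25 to -0.11). The partners of the VHL protein in its ligase, *Elob*, *Eloc*, *Cul2* and *Rbx1*, had ratios of 0.03, -0.16, 0.26 and -0.06, and none was past the rule. *Hif1an*, the asparaginyl hydroxylase that blocks coactivator binding, had 619 counts against 813 and a ratio of 0.12.

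Among 14 partners and coactivators, 13 were compared, 1 was higher, 1 lower and 11 neither, with a median of 0.05, and with spike-in scaling 0 were higher and 2 lower. The lower gene was *Arntl*, a clock gene related to *Arnt*, with 72 counts against 255 and a ratio of -1.30 (counting range -1.71 to -0.93). The higher gene was *Sim1*, named after its value was seen, with 16 counts against 8. *Hsp90ab1*, a chaperone of HIF-α and the most abundant of the list, had a ratio of -0.08 (counting range -0.11 to -0.05). The coactivator genes *Ep300* and *Crebbp* had ratios of 0.30 and 0.05.

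Of 36 HIF target genes outside glycolysis, 33 were compared, of which 3 were higher, 5 lower and 25 neither, with a median of 0.12. With spike-in scaling 0 of these were higher and 8 lower, so every higher call was lost. Those higher included *Kdm6b*, a histone demethylase, with 229 counts against 208 (ratio 0.65, range 0.38 to 0.93), and *Trf*, which encodes transferrin, with 221 against 204 (0.63, range 0.35 to 0.91). Those lower were *Ak4* (17 counts against 57, ratio -1.20, range -2.10 to -0.43), *Angptl4* (13 against 41, -1.10, range -2.17 to -0.21), *Plod2* (48 against 118, -0.77, range -1.30 to -0.29), *Nos3* (64 against 149, -0.70, range -1.15 to -0.27) and *Ddit4* (521 against 1083, -0.54, range -0.69 to -0.39). *Nos3* encodes the endothelial nitric oxide synthase, and *Ddit4* an inhibitor of mTOR that is also induced by glucocorticoids. The most abundant gene, *Vldlr*, which encodes a lipoprotein receptor, had 4563 counts against 5996 and a ratio of 0.12 (counting range 0.07 to 0.18), which was -0.15 with spike-in scaling. *Bnip3*, a mitophagy receptor with 2216 counts against 2645, had a ratio of 0.26 and was not past the rule.

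Of 22 HIF target genes of glucose use, 20 were compared, of which 3 were higher, 1 was lower and 16 were neither, with a median of 0.06. *Pfkfb3*, whose enzyme makes the allosteric activator of phosphofructokinase, had 760 counts against 2004, or 58.6 CPM against 108 CPM, and a ratio of -0.88 (counting range -1.00 to -0.76). *Pfkp*, a phosphofructokinase isoform that is minor in muscle, had 111 against 69 and a ratio of 1.20 (counting range 0.76 to 1.66). *Slc2a3*, a glucose transporter, had 101 against 78 and a ratio of 0.89 (range 0.45 to 1.33), and *Eno1* 96 against 91 and a ratio of 0.59 (range 0.16 to 1.02). Spike-in scaling moves each ratio by -0.28, after which the range of *Eno1* holds 0 and its call is lost. *Pfkfb3*, *Pfkp* and *Slc2a3* stay past the rule. The reads of *Eno1*, like those of *Gapdh*, *Pgk1* and *Pgam1*, can be split with near-identical copies and are uncertain. The abundant muscle genes *Aldoa*, *Ldha* and *Hk2* had ratios of -0.06, 0.07 and 0.11, and *Pdk1* had 0.32.

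**Figure D5:**
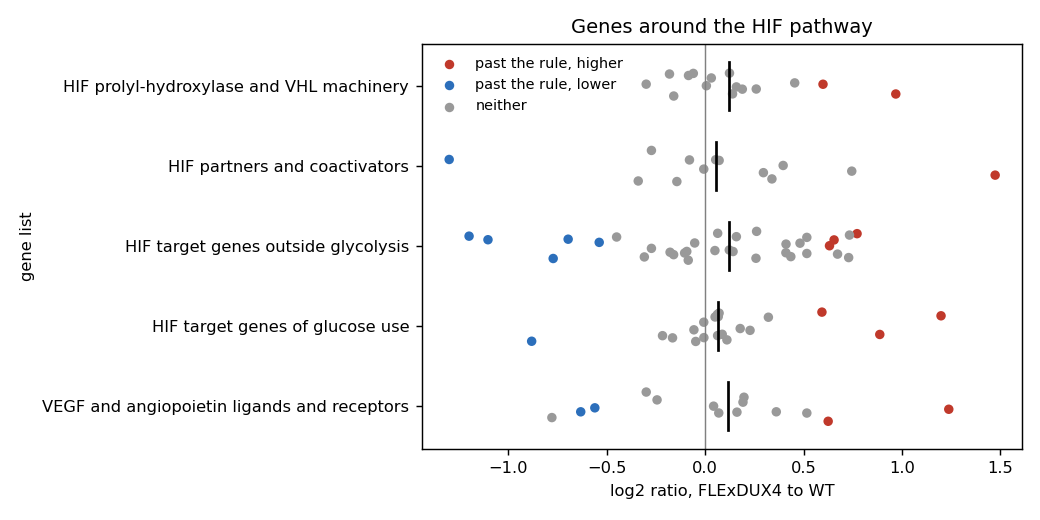
Log2 ratio of FLExDUX4 to wild-type (x axis) of each compared gene in 5 lists (y axis), with genes past the rule and higher in red, past it and lower in blue and the others in grey. Black bars mark the medians, which lie between 0.05 and 0.12, and the target lists hold genes on both sides of 0.

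Of 14 ligands and receptors of the VEGF and angiopoietin families in the table, 2 of them members, 2 were higher, 2 lower and 10 neither, with a median of 0.12, and with spike-in scaling 1 was higher and 4 lower. *Kdr*, which encodes the main signaling receptor of VEGF-A, had 632 counts against 1334, or 48.7 CPM against 71.9 CPM, and a ratio of -0.56 (counting range -0.70 to -0.42). *Flt1*, which encodes the receptor shared by VEGF-A and VEGF-B, had 1380 against 1722 and a ratio of 0.20 (counting range 0.09 to 0.30), or -0.079 with spike-in scaling. *Tek*, the angiopoietin receptor, had 80 against 178 and a ratio of -0.63 (counting range -1.04 to -0.25). *Vegfd* had 110 against 102 and a ratio of 0.62 (counting range 0.22 to 1.03), and *Angpt2*, named after its value was seen, had 30 against 18 and a ratio of 1.24 (range 0.36 to 2.18). For each count of *Flt1* there were 0.905 counts of *Vegfa* in FLExDUX4 muscle (0.838 to 0.978) and 1.23 in wild-type muscle (1.15 to 1.31). For each count of *Kdr* the order was the other way, with 1.98 (1.79 to 2.18) against 1.59 (1.48 to 1.70).

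Because *Epas1* and the VEGF receptors are expressed in endothelial cells, 12 endothelial markers were measured beside them, 3 of which (*Kdr*, *Flt1* and *Tek*) are also among the receptors above. All 12 had counts in both genotypes. Their summed level was 354 CPM in FLExDUX4 muscle and 353 CPM in wild-type muscle, a log2 ratio of 0.01 (counting range -0.05 to 0.06). This sum includes the 3 receptors, so it is not independent of them and is no separate measure of endothelial content. The 12 markers went both ways, with 2 higher, 3 lower and 7 neither. The higher ones were *Esam* (0.73, range 0.52 to 0.94) and *Erg* (0.91, range 0.12 to 1.73). The lower ones were *Kdr*, *Tek* and *Cldn5*, the last with 17 counts against 63 and a ratio of -1.34 (range -2.24 to -0.58). With spike-in scaling 0 were higher and 4 lower, and the summed ratio moves by -0.28. Among the 7 that were neither, *Pecam1* and *Cdh5* had ratios of 0.06 and -0.03. The lowest and highest of these 7 were *Emcn* (-0.44, range -0.81 to -0.09) and *Tie1* (0.36, range -0.02 to 0.74).

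Other markers were measured as a check that the tissue was skeletal muscle. They cannot tell quadriceps from triceps. All 10 myofiber markers were abundant, led by *Acta1*, none was past the rule, and they summed to 127465 CPM and 129061 CPM (FLExDUX4 first, here and below). The 7 slow fiber markers, led by *Myl3*, summed to 926 CPM and 996 CPM, with none past the rule. The 6 adipocyte markers summed to 164 CPM and 98.0 CPM, with *Adipoq*, *Cfd* and *Retn* higher (0.70, 0.88 and 0.69), while *Lep* had 12 counts against 31 (-0.82, not past the rule). With spike-in scaling 1 adipocyte marker was higher and 1 lower. The 6 fibroblast markers summed to 1737 CPM and 1519 CPM, with *Col1a1* higher (0.53), and the 6 of pericytes and smooth muscle to 366 CPM and 337 CPM, with none past the rule. The 6 macrophage markers summed to 84.7 CPM and 82.4 CPM, with *Cd163* higher (0.92) and 4 of the 6 ratios below 0, the lowest being *Adgre1* (-0.66) and *Cd68* (-0.64), neither past the rule. With spike-in scaling 1 macrophage marker was higher and 2 lower. The 4 Schwann cell markers summed to 84.9 CPM and 82.4 CPM, with none past the rule. With spike-in scaling 1 slow fiber marker and 1 Schwann cell marker were lower, and no fibroblast marker was past the rule. No marker in these lists was at 0 in both genotypes. The part of these cell types in the ratios of the hypoxia genes was not tested.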

How the data were processed

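QuantSeq libraries were made from muscle RNA of 3 mice of each genotype. The authors trimmed reads with Cutadapt and aligned them with STAR to GRCm38 joined to ERCC and SIRV sequences. Their processing notes name featureCounts 1.6.2, and they compared genotypes with DESeq2. The deposited counts are whole reads per gene, summed over each genotype by the authors without normalization. A further 6 columns of single libraries carry names that fit no label and stayed unused, since columns were assigned to mice by name alone and never by their values. The edgeR test foreseen for single samples, DESeq2 and pairing were therefore not run. The authors' own fold changes and p-values were also not used.

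Totals over mouse genes were multiplied by TMM factors (edgeR 4.0.16 under R 4.3.3) from the 13396 genes that filterByExpr kept. Log2 ratios used a pseudocount of 0.5. Clopper-Pearson and Poisson intervals (95%) were computed with scipy 1.17.1 and cover counting error only. Spike-ins were left out of the totals. With at most 3 counts in both genotypes no ratio was taken. Scripts were tested on simulated counts.

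The members and lists were chosen with earlier results of these data known. From each list the text names genes past the rule with at least 50 counts, up to 5 each way, and the most abundant gene. *Hif1an*, *Elob*, *Eloc*, *Cul2*, *Rbx1*, *Ep300*, *Crebbp*, *Bnip3*, *Ldha*, *Hk2*, *Pdk1*, *Pecam1*, *Cdh5*, *Emcn*, *Tie1*, *Mb*, *Hba-a1*, *Lep*, *Adgre1*, *Cd68*, *Sim1* and *Angpt2* fall outside it and were chosen after their values were seen. One gene that the rule names is not reported here. Coordinates are from GENCODE M21 (GRCm38), printed where the start equals the deposited one.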

Additional observations from a re-analysis of the deposited data

How the results depend on the processing

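No paired analysis was possible because the columns used here carry no replicate numbers; the 6 columns of single libraries, whose names match no label, were left unused by choice. For the same reason leaving out each mouse in turn was not run. With spike-in totals the log2 ratio was -0.077 for *Epas1*, 0.24 for *Arnt*, -0.12 for *Egln1*, -0.58 for *Egln2*, -0.087 for *Egln3*, -0.52 for *Vegfa* and -0.23 for *Vegfb*, beyond their counting intervals, while *Hif1a* (-0.76) and *Vhl* (0.69) stayed within theirs. What separates the spike-in scale from that of the genes was not tested. The members past the rule, 2 higher and 0 lower, became 1 and 3 with spike-in totals and 1 and 1 with gene totals. The lower count was 1 with upper quartile scaling and 1 with at least 10 counts in each total, *Hif1a* being at -0.50 in both. A limit of 1 on the absolute ratio left 0 higher. The interval alone gave 4 higher and 3 lower, against 20.5% and 20.6% of all genes, which were not matched for depth. With spike-in totals the hydroxylase and VHL list had 1 higher and 1 lower, the partners 0 and 2, the target genes outside glycolysis 0 and 8, and the VEGF and angiopoietin list 1 and 4, where 5.79% of all genes were higher and 23.8% lower. In the list of glucose use, spike-in totals removed the higher call of *Eno1*. With at least 10 counts in each total the partners had 0 higher. RLE, no filter and pseudocounts of 1 and 5 moved no member beyond its interval and no count of these lists by over 1.5 times. Depth limits *Vhl* (147 counts) and *Hif3a* (4 counts) most.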

Other observations

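Transcripts of the oxygen-carrying globins were measured beside the hypoxia genes. *Mb*, which encodes the myoglobin that stores oxygen in muscle fibers, had 24079 counts in FLExDUX4 muscle and 34467 in wild-type muscle, and its log2 ratio was -0.0010. The 5 erythroid genes had ratios from 0.25 to 0.45, and none was past the rule. Spike-in scaling moves each by -0.28, which takes the lowest of them, *Hba-a1*, below 0. *Hbb-bs*, the most abundant, had 9530 counts against 10628, with a ratio of 0.36 (counting range 0.32 to 0.40), which was 0.08 with spike-in scaling. Their summed level was 1279 CPM in FLExDUX4 muscle and 1019.8 CPM in wild-type muscle. The blood left in each muscle was not measured, and its part in these values was not tested.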
